A study of Trametes versicolor with 17 samples.

Results

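Transcript levels in pellets of Trametes versicolor, a wood-decaying white-rot fungus, were compared between exposure to the aqueous phase of salad dressing waste and exposure to the aqueous phase of algal biomass waste. The aqueous phase is the watery, organic-rich by-product of hydrothermal liquefaction, in which wet waste is turned into an oil by heat and pressure. The groups, called SD-AP and AB-AP here and SD and AB in the figures, were chosen by their labels and hold 6 of the series' 17 mRNA libraries, 3 in each group. Both were cultured for 72 h in 2% malt extract with 5% aqueous phase, shaken at 135 rpm and 28 °C, and the labels give the same genotype, ASM 8036, to every sample, which the design text calls wild type. The 3 controls of the same batch had the same time, genotype and medium without aqueous phase, and their levels serve only as a reference. The controls and the 3 food waste libraries of the batch also entered the fit. There they bear on the filter on low counts, the scaling and the estimate of the spread, and so on estimates and calls. They have no weight in the contrast itself. The comparison asks how the response of 1 fungus differs between 2 feedstocks at the same dose and time. The labels do not say what either aqueous phase contained.

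White-rot fungi break down lignin with secreted oxidative enzymes. Class II heme peroxidases use hydrogen peroxide: manganese peroxidases (MnP) oxidise Mn(II) to Mn(III), a diffusible oxidant, lignin peroxidases (LiP) oxidise non-phenolic aromatic units directly, and versatile peroxidases (VP) do both. Dye-decolorising peroxidases (DyP) and heme-thiolate peroxidases (HTP) are separate heme enzyme families with broad organic substrates, and laccases are multicopper oxidases that oxidise phenols with oxygen. The genomes of these fungi carry several genes of most of these families, which need not be expressed together.

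The count table held 14296 gene models, of which 10838 passed the filter on low counts and were tested. No counts under either phase were found for 2317 models. Totals were 17445128 to 18133280 counts in the SD-AP libraries, 16383455 to 17177255 in the AB-AP libraries and 15459249 to 18235907 in the controls. A floor of 3 counts corresponded to 0.154 CPM (a library's counts scaled to a total of 1e6) in the SD-AP libraries and to 0.181 to 0.189 CPM in the AB-AP libraries. In a principal component analysis of these 9 libraries 79.7% of the variance lay on component 1, which separated the AB-AP libraries (81.2 to 83.1) from the controls (-56.7 to -48.3) and the SD-AP libraries (-32.6 to -24.3). Component 2, with 9.47%, separated the SD-AP libraries (-32.9 to -21.5) from the controls (13.5 to 27.9), with the AB-AP libraries between (3.29 to 7.12). The median coefficient of variation of genes with at least 10 CPM was 12.6% under SD-AP, 8.62% under AB-AP and 13.2% in the controls. Replicate 2 of SD-AP stood apart for a small set of genes: 19 tested genes with at least 10 CPM were over 4 times as high there as in both other SD-AP libraries, among them LiP2, MnP7s, TvLac1 and TvLac3. Control replicate 2 had 10 such genes, and the other libraries of the 3 groups had 0 or 1. Of the 19 genes 8 were called between SD-AP and AB-AP. Without that library 6 of the 8 were called in the same direction, 2 were not called, and 2 further genes were called higher under AB-AP. Genes of this set that are named below are given with and without it. Levels are CPM on library sizes scaled by the trimmed mean of M values (TMM). Since these are bulk samples, fewer cells of a type and less RNA per cell cannot be told apart.

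Transcript levels differed for most of the tested genes. Of the 10838, 5871 were called at an adjusted p of 0.05 (54.2%), 3063 higher under SD-AP (28.3%) and 2808 higher under AB-AP (25.9%). A difference of at least 2-fold was called for 3071 (28.3%), with 1723 higher under SD-AP (15.9%) and 1348 higher under AB-AP (12.4%). At least 4-fold differences were called for 1111 genes (10.3%), 664 on the SD-AP side (6.13%) and 447 on the AB-AP side (4.12%), and at least 16-fold differences 159 (1.47%) and 85 (0.784%). The libraries of both groups did not overlap for 6889 genes (63.6%), with SD-AP above AB-AP in 32.9% and AB-AP above SD-AP in 30.7% of tested genes. The direction split depended on scaling. With library totals in place of TMM 3904 genes were higher under SD-AP and 2117 higher under AB-AP, 64.8% against 52.2% of calls on the SD-AP side, and the median log2 fold change of all tested genes (positive where SD-AP was higher) moved from 0.05 to 0.22. No gene with a symbol changed direction with that scaling.

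**Figure D1:**
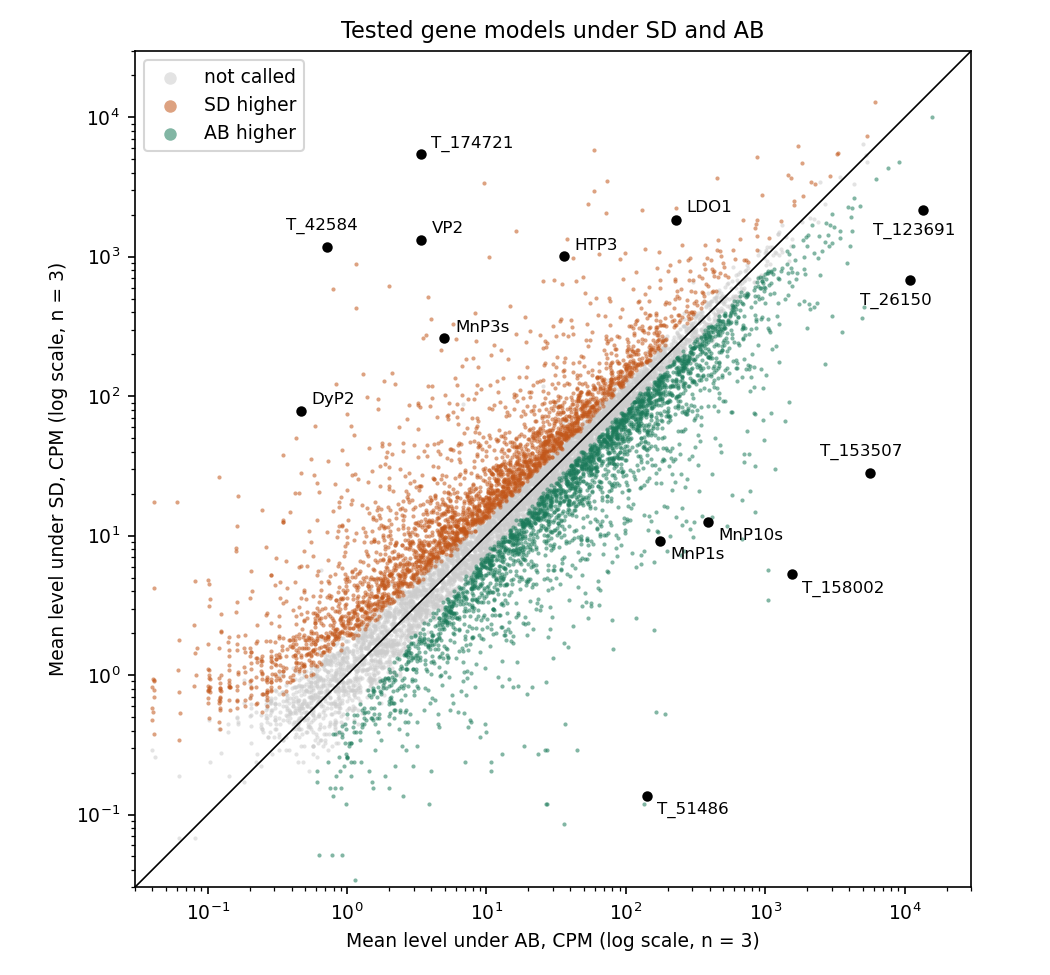
Mean level of each tested gene model under AB-AP (AB, x axis) and under SD-AP (SD, y axis), in CPM on log scales, n = 3 libraries each; orange and green points are genes called higher under SD-AP and under AB-AP, grey points were not called, and black points are named genes (T_ stands for TRAVEDRAFT_). The line marks equal levels, 10833 models are drawn, and 5 with a mean of 0 in a group are not. VP2 and TRAVEDRAFT_174721 lie far above the line, and MnP10s, MnP1s and TRAVEDRAFT_158002 lie far on the AB-AP side.

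Genes at least 4-fold higher under SD-AP took 10.7% ± 0.592 (standard deviation, n = 3) of an SD-AP library, 0.766% ± 0.0364 of an AB-AP library and 13% ± 0.605 of a control library. Genes at least 4-fold higher under AB-AP took 12.8% ± 0.111 of an AB-AP library, 1.70% ± 0.338 of an SD-AP library and 1.04% ± 0.135 of a control library. The low share under the other phase follows from how the sets were chosen. The controls, which entered the choice only through the shared fit and not through the contrast, lay nearer to SD-AP than to AB-AP for both sets. The 4-fold SD-AP set had shorter models, with a median length of 1086 bases and 18.1% under 600 bases, where the 4-fold AB-AP set had 1320 bases and 13%, and all tested models 1317.5 bases and 11.7%. Among the 50 most abundant genes per length, SD-AP shared 26 with AB-AP and 39 with the controls, and AB-AP shared 21 with the controls.

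Most of the genes that carry a gene symbol encode lignin-modifying enzymes. Of 42 such genes, 40 were tested; 20 were higher under SD-AP, 6 were higher under AB-AP and 14 were not called, with a median log2 fold change of 1.16 against 0.05 over all tested genes. Of all tested genes 28.3% were called higher under SD-AP and 25.9% higher under AB-AP. The counts of this list and of the next are to be read against these shares. In the heme peroxidase list (MnP, LiP, VP, DyP and HTP; 31 genes, 29 tested) 15 were higher under SD-AP, 5 higher under AB-AP and 9 not called, with a median of 0.90. Libraries did not overlap for 22 of the 29, where the share over all tested genes is 63.6%. The summed level of the list, in CPM per kilobase of model length, was 2793, 2824 and 3307 in the SD-AP libraries, 418, 1083 and 732 in the AB-AP libraries and 3054, 3273 and 3655 in the controls. The AB-AP libraries were below every SD-AP and control library, and the SD-AP and control libraries overlapped. Members of a family with near-identical sequence may share reads, so the split among close copies is uncertain.

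**Figure D2:**
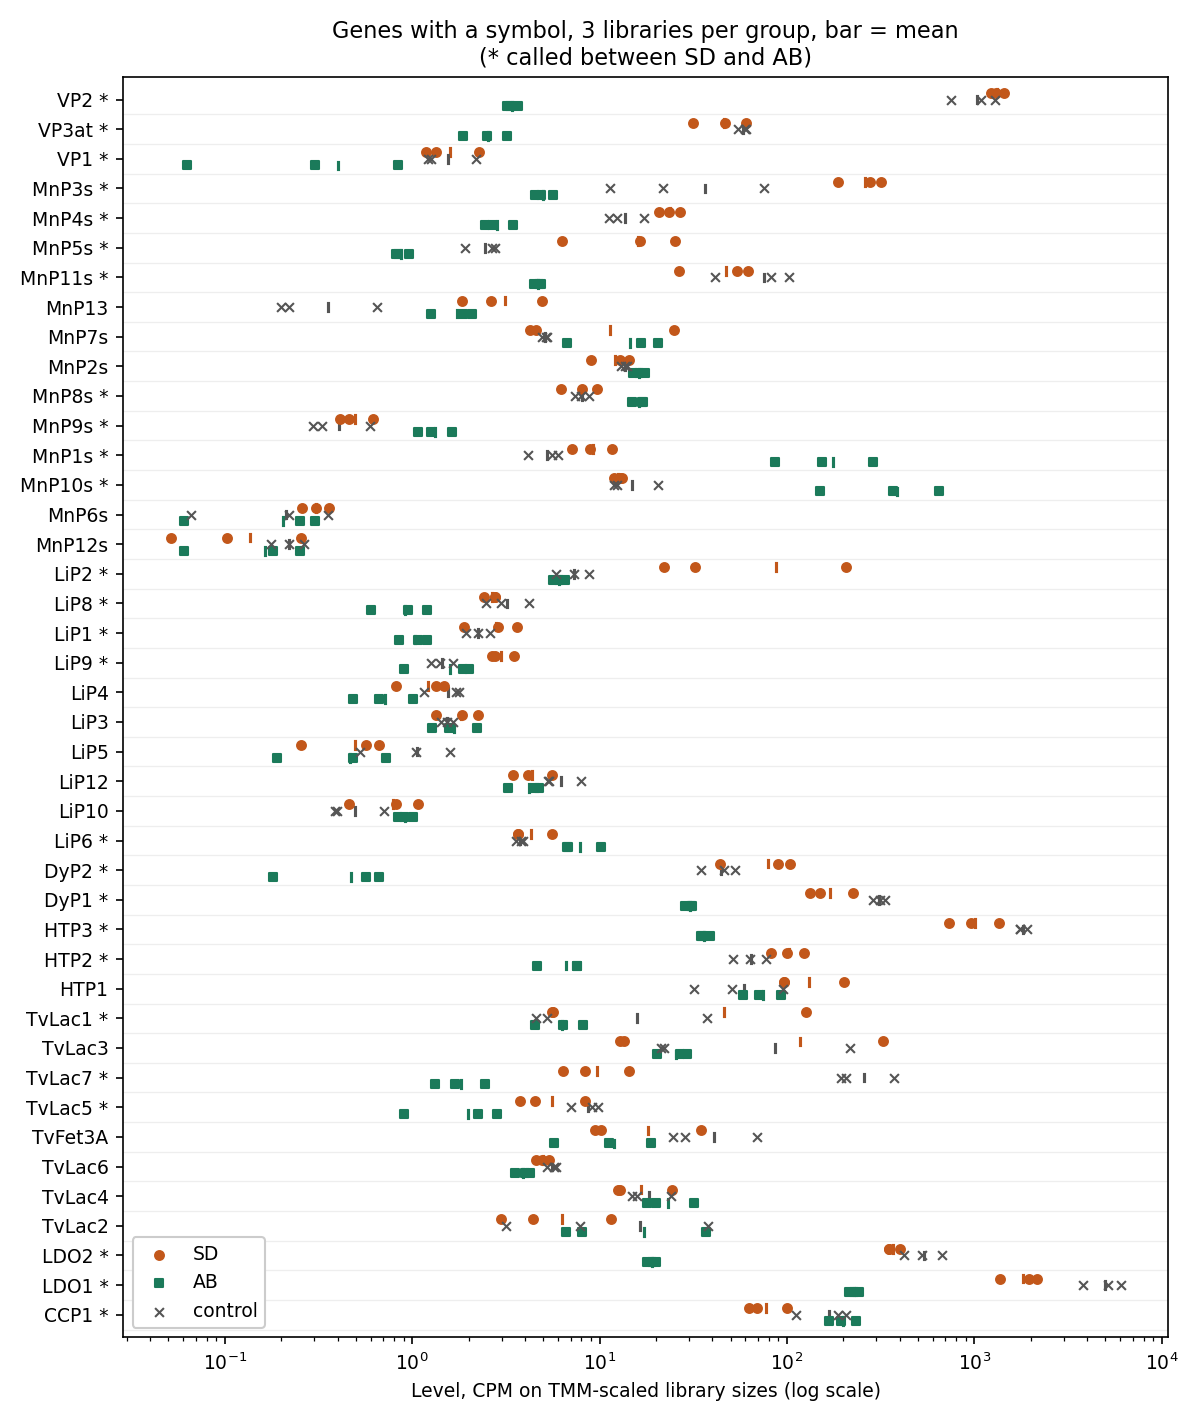
Level of the 42 genes with a symbol in each SD-AP (SD), AB-AP (AB) and control library, in CPM on a log scale, ordered by family; each mark is 1 library, the short bar is the mean of 3 libraries, and an asterisk marks a call between SD-AP and AB-AP. The versatile, dye-decolorising and abundant heme-thiolate peroxidases stand higher under SD-AP, MnP1s and MnP10s stand higher under AB-AP, and LiP2, MnP7s, TvLac1 and TvLac3 have 1 SD-AP library far above the other 2.

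All 3 versatile peroxidase genes were higher under SD-AP, a direction called for 28.3% of all tested genes. VP2 (TRAVEDRAFT_26239; scaffold 2, 411397 to 413494, 12 exons) had 1233, 1443 and 1308 CPM under SD-AP, 3.65, 3.32 and 3.20 CPM under AB-AP and 746, 1086 and 1281 CPM in the controls, and the phases differed by 8.61 on the log2 scale (SE 0.45, adjusted p = 1.05e-08). The SD-AP range thus overlapped the control range, and the AB-AP libraries lay far below both. VP3at (scaffold 6, 221007 to 222989) had 60.7, 31.3 and 46.7 CPM under SD-AP, 2.52, 1.87 and 3.20 CPM under AB-AP and 55 to 60.1 CPM in the controls (4.19, SE 0.69, adjusted p = 0.000222). VP1 was low in both groups, at 2.26, 1.18 and 1.34 CPM under SD-AP and 0.0630, 0.844 and 0.302 CPM under AB-AP, and the lowest AB-AP value is below the floor of 3 counts (1.95, SE 0.56, adjusted p = 0.0103). Without AB-AP replicate 2 the log2 fold change of VP1 was 3.06. Summed per length, the VP level was 1005 ± 66.5 CPM per kilobase under SD-AP, 4.69 ± 0.228 under AB-AP and 801 ± 200.1 in the controls.

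The manganese peroxidases split by member. Of 13 genes 11 were tested; 4 were higher under SD-AP, 4 were higher under AB-AP and 3 were not called, with a median of -0.37. Over all tested genes 28.3% and 25.9% were called in these directions. MnP3s (scaffold 10, 2217215 to 2218473) had 319, 187 and 279 CPM under SD-AP, 4.85, 5.61 and 4.53 CPM under AB-AP and 21.9, 11.4 and 75.7 CPM in the controls (5.71, SE 0.75, adjusted p = 3.19e-05). Its SD-AP libraries were above the controls and its AB-AP libraries below them. MnP5s followed the same order, with 16.4, 25.3 and 6.32 CPM under SD-AP, 0.819, 0.844 and 0.967 CPM under AB-AP and 1.92 to 2.75 CPM in the controls (4.18, SE 0.69, adjusted p = 0.000210). MnP4s had 20.7, 26.9 and 23.5 CPM under SD-AP, 2.46, 2.65 and 3.44 CPM under AB-AP and 11.2 to 17.3 CPM in the controls (3.05, SE 0.24, adjusted p = 3.86e-07). For these genes, MnP3s, MnP5s and MnP4s, the control range lay between both phases. MnP11s (scaffold 12, 143374 to 145126) had 61.6, 26.7 and 53.8 CPM under SD-AP, 4.47, 4.88 and 4.77 CPM under AB-AP and 41.4 to 103 CPM in the controls, where the control and SD-AP ranges overlapped (3.33, SE 0.52, adjusted p = 0.000145).

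In the other direction, MnP10s (scaffold 3, 2713545 to 2714883, 5 exons) had 149, 648 and 368 CPM under AB-AP, 12.8, 11.9 and 13.1 CPM under SD-AP and 11.9, 12.4 and 20.6 CPM in the controls, with a log2 fold change (SD-AP minus AB-AP) of -4.94 (SE 0.45, adjusted p = 1.16e-06). MnP1s (scaffold 10, 2036382 to 2037708) had 85.9, 287 and 154 CPM under AB-AP, 11.7, 8.86 and 7.09 CPM under SD-AP and 4.13 to 6.02 CPM in the controls (-4.25, SE 0.39, adjusted p = 1.46e-06). For both genes AB-AP replicate 2 was the highest and AB-AP replicate 1 the lowest of the group, and every AB-AP library was above every SD-AP and control library. MnP8s (-1.02, adjusted p = 0.000636), at 14.9 to 17.0 CPM under AB-AP and 6.22 to 9.68 CPM under SD-AP, and MnP9s (-1.40, adjusted p = 0.00310), at 1.07 to 1.63 CPM and 0.411 to 0.616 CPM, had smaller differences. MnP2s (-0.43, adjusted p = 0.0756), MnP7s (-0.37, adjusted p = 0.631) and MnP13 (0.85, adjusted p = 0.182) were not called. MnP7s had 4.57, 25.1 and 4.27 CPM under SD-AP and 6.68, 20.4 and 16.6 CPM under AB-AP, and without SD-AP replicate 2 it was called higher under AB-AP (-1.72, adjusted p = 0.00883). MnP2s was also called without that library (-0.57, adjusted p = 0.0365), which brought the family to 6 genes higher under AB-AP. MnP6s and MnP12s, at or below 0.359 CPM in each SD-AP and AB-AP library, were not tested.

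The summed MnP level did not separate the phases. It was 435, 316 and 373 CPM per kilobase under SD-AP, 268, 922 and 541 under AB-AP and 104 to 230 in the controls, so that the SD-AP and AB-AP ranges overlapped. What separated them was the composition of the family. MnP3s made up 63.6% ± 7.98 of the summed level under SD-AP and 0.999% ± 0.588 under AB-AP. MnP10s made up 59.6% ± 7.21 under AB-AP and 3.14% ± 0.393 under SD-AP, and MnP1s 27.8% ± 1.68 and 2.25% ± 0.448. In the controls the leading member was MnP11s, at 42.4% ± 6.66. The 6 tested MnP genes on scaffold 10 from MnP3s to MnP9s, which lie in 1 region with other models between them, had log2 fold changes from -1.40 to 5.71, with a median of 0.24.

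**Figure D3:**
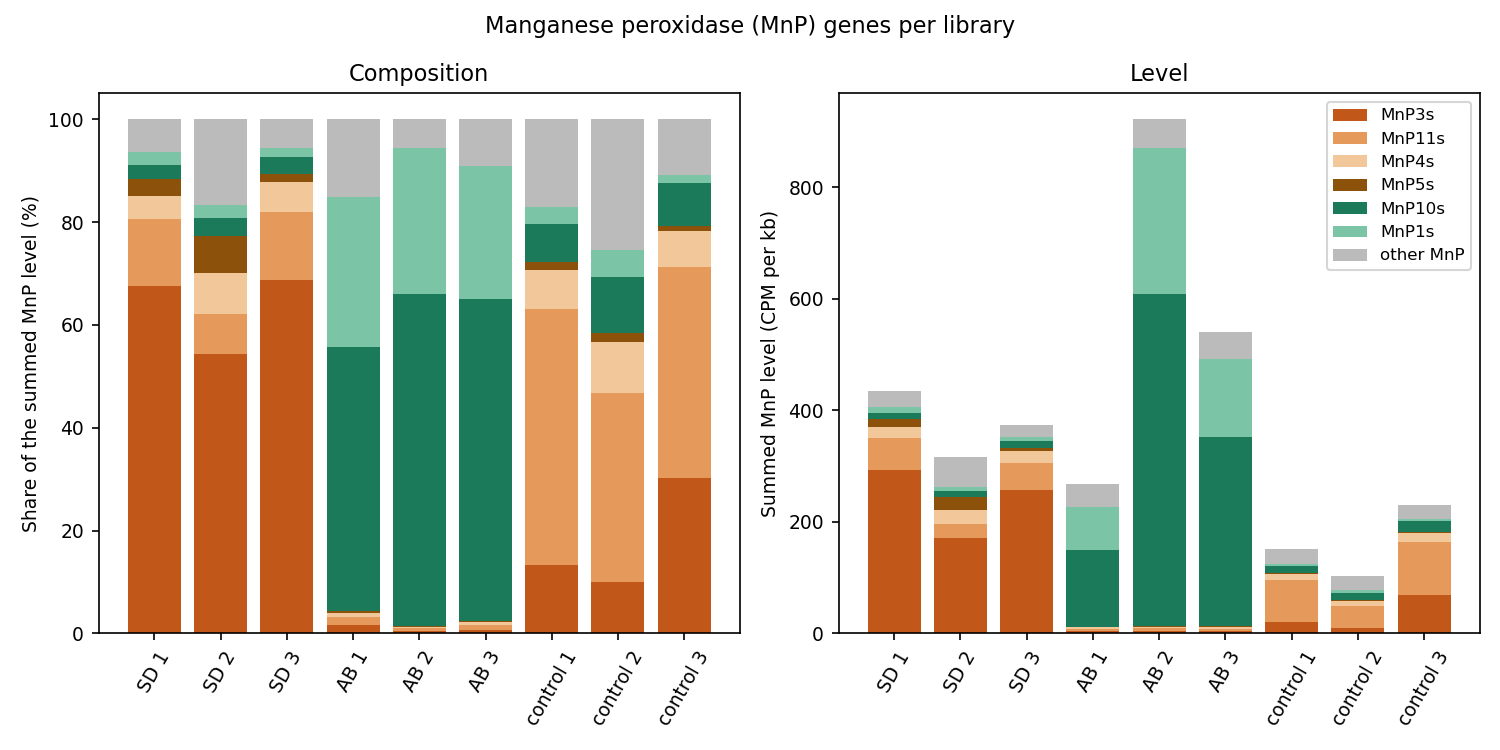
Manganese peroxidase genes in each SD-AP (SD), AB-AP (AB) and control library: left, the share of each gene in the summed level per length in percent; right, the summed level in CPM per kilobase. MnP3s is the largest share in the 3 SD-AP libraries and MnP10s with MnP1s in the 3 AB-AP libraries, while the summed levels of both groups overlap (316 to 435 and 268 to 922 CPM per kilobase).

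Apart from LiP2, the lignin peroxidases were low transcripts. Of the 10 genes, 4 were higher under SD-AP, 1 was higher under AB-AP and 5 were not called (median 0.43). This stands beside 28.3% and 25.9% of all tested genes called in these directions. LiP2 (scaffold 2, 2752329 to 2753791) had 32.4, 207 and 22 CPM under SD-AP, 6.55, 5.67 and 6.10 CPM under AB-AP and 5.82 to 8.78 CPM in the controls (3.83, SE 0.79, adjusted p = 0.00120). Replicate 2 of SD-AP carried much of this difference, and leaving it out gave a difference of 2.15 on the log2 scale (adjusted p = 0.00283). All 3 SD-AP libraries were above the AB-AP and control ranges, which overlapped. LiP8 (1.52, adjusted p = 0.000959), LiP1 (1.42, adjusted p = 0.00142) and LiP9 (0.90, adjusted p = 0.0164) were at 1.90 to 3.63 CPM under SD-AP. LiP6 was higher under AB-AP, at 6.68, 6.75 and 10.1 CPM against 3.65, 5.58 and 3.65 CPM (-0.87, SE 0.26, adjusted p = 0.0127). The LiP6 call was lost without AB-AP replicate 3 (adjusted p = 0.0720), and the LiP9 call without SD-AP replicate 1 or AB-AP replicate 2 (adjusted p = 0.0636 and 0.0661). LiP3, LiP4, LiP5, LiP10 and LiP12 were not called, and LiP12 overlaps a model on the opposite strand.

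Both dye-decolorising peroxidase genes were higher under SD-AP, beside 28.3% of all tested genes called in this direction. DyP2 (scaffold 7, 2137219 to 2139041) had 89.4, 43.8 and 104 CPM under SD-AP and 34.7 to 52.7 CPM in the controls, which overlap, against 0.567, 0.663 and 0.181 CPM under AB-AP (7.37, SE 0.87, adjusted p = 1.28e-05). The AB-AP libraries were at or a few times above the floor of 3 counts. DyP1, on the same scaffold (2124895 to 2126685), had 133, 149 and 226 CPM under SD-AP and 28.6, 31.3 and 30.7 CPM under AB-AP, both below the 287 to 332 CPM of the controls (2.49, SE 0.22, adjusted p = 8.03e-07). For DyP2, SD-AP replicates 1 and 3 were above every control library and replicate 2 lay within the control range, whereas DyP1 was below its controls under both phases.

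Among the heme-thiolate peroxidases, HTP3 (scaffold 12, 883884 to 884984) had 953, 732 and 1347 CPM under SD-AP, 34.6, 35.1 and 38.7 CPM under AB-AP and 1757 to 1905 CPM in the controls (4.81, SE 0.22, adjusted p = 3.49e-09). The neighbouring model HTP2 (881424 to 882682, same strand) had 82.3, 101 and 124 CPM under SD-AP, 7.62, 4.64 and 7.61 CPM under AB-AP and 51.5 to 77.1 CPM in the controls (3.95, SE 0.24, adjusted p = 3.53e-08). The pair shared the direction between the phases but not the place of the controls, which were above both phases for HTP3 and between them for HTP2. HTP1, on scaffold 3, had 96.2, 202 and 96.5 CPM under SD-AP and 58.4, 71.3 and 93.2 CPM under AB-AP and was not called (0.82, SE 0.37, adjusted p = 0.0760). It was called when library totals replaced TMM (adjusted p = 0.0384), when the SD-AP and AB-AP libraries were fitted alone (adjusted p = 0.0395) and with the replicate number as a block (adjusted p = 0.0488). Per length, HTP3 was 36.8% of the summed heme peroxidase level under SD-AP and VP2 32.8%, while under AB-AP MnP10s was 44.8%, MnP1s 20.7% and HTP1 11%.

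Of 8 genes in the list of laccases and the multicopper oxidase TvFet3A, 3 were higher under SD-AP, none was higher under AB-AP by edgeR's test, by DESeq2 or at an unadjusted p of 0.05, and 5 were not called (median 1.04). Over all tested genes 28.3% were called higher under SD-AP and 25.9% higher under AB-AP. TvLac7 (scaffold 6, 160728 to 162937) had 8.37, 6.35 and 14.4 CPM under SD-AP, 2.46, 1.33 and 1.69 CPM under AB-AP and 193 to 371 CPM in the controls, far above both phases (2.41, SE 0.37, adjusted p = 0.000132). TvLac5 had 3.75, 8.34 and 4.52 CPM under SD-AP and 2.83, 0.904 and 2.24 CPM under AB-AP (1.48, SE 0.44, adjusted p = 0.0128), a call lost without SD-AP replicate 2 (adjusted p = 0.0644) or AB-AP replicate 2 (adjusted p = 0.0537).

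The third laccase call, TvLac1 (scaffold 1, 1409247 to 1411468), rested on 1 library. Its levels were 5.65, 127 and 5.60 CPM under SD-AP, 8.12, 4.52 and 6.34 CPM under AB-AP and 5.23, 37.5 and 4.60 CPM in the controls (2.86, SE 1.14, adjusted p = 0.0479). Leaving out SD-AP replicate 2 gave -0.17 (adjusted p = 0.876), and with the replicate block 1.39 (adjusted p = 0.172). TvLac3 had the same shape, with 13.6, 327 and 12.8 CPM under SD-AP, 20.3 to 29.3 CPM under AB-AP and 21.3, 216 and 22 CPM in the controls, and was not called (2.21, SE 1.24, adjusted p = 0.148, and -0.95 without SD-AP replicate 2). TvLac4 was called higher under AB-AP without that library (-0.88, adjusted p = 0.0249), and the list then had 1 call in each direction. TvLac2 had 37.0, 6.63 and 8.03 CPM under AB-AP and 4.42, 11.6 and 2.98 CPM under SD-AP and was not called (-1.44, adjusted p = 0.163). Its difference rested on AB-AP replicate 1, and without that library it was -0.22. TvLac6 (0.34, adjusted p = 0.139) and TvFet3A (0.61, adjusted p = 0.411) were not called.

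The symbols LDO1 and LDO2 belong to a pair of abundant long transcripts. LDO1 (scaffold 1, 623274 to 628182, 24 exons) had 1949, 1374 and 2154 CPM under SD-AP, 214, 243 and 229 CPM under AB-AP and 5187, 3806 and 6025 CPM in the controls (3.00, SE 0.22, adjusted p = 1.87e-07). LDO2 (scaffold 6, 458124 to 462878, 25 exons) had 348, 402 and 351 CPM under SD-AP, 19.1, 17.8 and 19.9 CPM under AB-AP and 420 to 668 CPM in the controls (4.28, SE 0.19, adjusted p = 2.57e-09). For both, the order was control, SD-AP, AB-AP with no overlap between the groups. CCP1 (cytochrome c peroxidase by its symbol), the mitochondrial enzyme that reduces hydrogen peroxide with cytochrome c, had the opposite direction. It had 68.8, 62.5 and 99.7 CPM under SD-AP, 167, 234 and 194 CPM under AB-AP and 111 to 207 CPM in the controls (-1.37, SE 0.26, adjusted p = 0.000695), so that SD-AP was the group apart from the controls.

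The largest differences were found among genes for which the reference gives neither symbol nor description. VP2, at 8.61, exceeded some of the SD-AP side genes given here. TRAVEDRAFT_42584 (scaffold 1, 4479612 to 4481092, 6 exons) had 1131, 1381 and 1013 CPM under SD-AP, 1.20, 0.482 and 0.483 CPM under AB-AP and 591 to 972 CPM in the controls (10.67, SE 0.39, adjusted p = 5.39e-10). TRAVEDRAFT_174721 (scaffold 13, 603124 to 605868, 16 exons) had 6128, 4462 and 5710 CPM under SD-AP, 3.65, 3.01 and 3.44 CPM under AB-AP and 3036 to 5764 CPM in the controls (10.65, SE 0.37, adjusted p = 5.39e-10). Both were thus among the abundant transcripts of SD-AP and control pellets and near the floor or at a few CPM under AB-AP. TRAVEDRAFT_65852 (scaffold 8, 2331745 to 2334257) had 3773, 2756 and 3668 CPM under SD-AP, 9.01, 9.16 and 10.6 CPM under AB-AP and 5529 to 6536 CPM in the controls (8.47, SE 0.25, adjusted p = 1.84e-10). TRAVEDRAFT_86104 (9.56), TRAVEDRAFT_52920 (9.52) and TRAVEDRAFT_53859 (8.51) had 219 to 1122 CPM under SD-AP and 0.723 to 1.39 CPM under AB-AP. TRAVEDRAFT_127464 (scaffold 8, 2591471 to 2592369) had 1025 counts under SD-AP and 2 under AB-AP, a ratio of 430 (95% counting interval 119 to 3553, counting error only). With VP2, these are the 8 largest SD-AP side differences among called genes with at least 10 CPM in the higher group and no overlap. For 6 of the 8 the control range overlapped that of SD-AP, for TRAVEDRAFT_42584 it lay between the phases, and for TRAVEDRAFT_65852 above both.

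On the AB-AP side the largest differences were in genes that were low under SD-AP, from below the floor of 3 counts to 5.60 CPM. TRAVEDRAFT_20736 (scaffold 6, 2298750 to 2299358, 3 exons) had 110, 160 and 133 CPM under AB-AP and 0.205, 0.102 and 0.0514 CPM under SD-AP (-10.05, SE 0.51, adjusted p = 8.14e-09), where the SD-AP values rest on 7 counts in all. Without SD-AP replicate 1 its log2 fold change was -10.65. TRAVEDRAFT_51486 (scaffold 10, 2414909 to 2415317) had 107, 175 and 141 CPM under AB-AP and 8 counts in all under SD-AP (-9.94, SE 0.36, adjusted p = 5.39e-10). TRAVEDRAFT_158002 (scaffold 1, 1195821 to 1197757) was abundant, at 1695, 1441 and 1499 CPM under AB-AP, 5.60, 5.22 and 5.09 CPM under SD-AP and 4.54 to 8.25 CPM in the controls (-8.18, SE 0.29, adjusted p = 5.39e-10). TRAVEDRAFT_136728 (scaffold 16, 649466 to 651746) had 782, 1282 and 1046 CPM under AB-AP and 2.52, 4.91 and 2.93 CPM under SD-AP (-8.23, SE 0.48, adjusted p = 2.57e-08). TRAVEDRAFT_48684 (-8.60), TRAVEDRAFT_171861 (-8.47), TRAVEDRAFT_75286 (-8.21) and TRAVEDRAFT_54052 (-7.74, and -8.35 without SD-AP replicate 1) had 14.7 to 247 CPM under AB-AP and at most 0.719 CPM under SD-AP. For all 8 the control range overlapped that of SD-AP.

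Genes with no counts at all in 1 group were few and low. They were counted over all 14296 models, without adjustment for depth. The floor of 3 counts was lower under SD-AP, at 0.154 CPM, than under AB-AP, at 0.181 to 0.189 CPM. No counts under AB-AP but some under SD-AP were found for 174 models, 17 of them with at least 10 counts, and the reverse for 105 models, 8 with at least 10. TRAVEDRAFT_65507 had the most, 144 counts under SD-AP and 0 under AB-AP, at least 13.4-fold higher when AB-AP is set to the floor of 3 counts per library. TRAVEDRAFT_54233 had 28 counts under AB-AP and 0 under SD-AP, at least 3.70-fold higher by the same floor, and was too low to be tested.

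Several of the most abundant transcripts also differed at least 2-fold; the 5 in each direction with the highest mean CPM over the 6 libraries of both groups are given. TRAVEDRAFT_123691 (scaffold 6, 139934 to 141556) had 14433, 12365 and 13488 CPM under AB-AP, 2068, 2308 and 2116 CPM under SD-AP and 1073 to 1814 CPM in the controls (-2.63, SE 0.24, adjusted p = 1.31e-06). TRAVEDRAFT_26150 (scaffold 1, 4867401 to 4869360) had 10902, 10419 and 11195 CPM under AB-AP, 301, 1312 and 428 CPM under SD-AP and 55.2, 226 and 66.7 CPM in the controls (-3.99, SE 0.59, adjusted p = 9.42e-05). In SD-AP and in the controls replicate 2 was the highest, and without SD-AP replicate 2 the log2 fold change of TRAVEDRAFT_26150 was -4.90. For both genes the order was AB-AP, SD-AP, control with no overlap. TRAVEDRAFT_155039 (-1.46), TRAVEDRAFT_27227 (-1.09) and TRAVEDRAFT_152955 (-1.05) had smaller differences, at 3787 to 4994 CPM under AB-AP. On the SD-AP side TRAVEDRAFT_160067 (scaffold 1, 4475963 to 4478584) had 6050, 6235 and 5324 CPM under SD-AP, 61.8, 47.4 and 67.5 CPM under AB-AP and 4636 to 6119 CPM in the controls (6.64, SE 0.20, adjusted p = 1.84e-10). TRAVEDRAFT_68340 (2.56), TRAVEDRAFT_163607 (1.84), TRAVEDRAFT_25375 (1.35) and TRAVEDRAFT_30062 (1.06) had smaller differences, at 4230 CPM or more in each library under SD-AP.

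The control libraries show on which side of their range each called gene fell. Of the 3063 genes higher under SD-AP, the control range overlapped only that of SD-AP for 1583 (51.7%), lay above both phases for 766 (25.0%), between them for 230, overlapped only AB-AP for 224 (7.31%) and lay below both for 24. Of the 2808 genes higher under AB-AP, it overlapped only SD-AP for 1612 (57.4%), lay below both phases for 674 (24.0%), overlapped only AB-AP for 162 (5.77%), lay between them for 158 and above both for 21. In both directions the most common class was thus SD-AP overlapping the controls with AB-AP apart, as for VP2 and MnP10s. Ranges overlap more easily where libraries vary more, and the AB-AP libraries varied least. The next was both phases off the control range on the same side with AB-AP farther, as for HTP3 and MnP1s. CCP1 is an example of the less common class in which SD-AP was apart and AB-AP overlapped the controls. This is a description of ranges of 3 libraries, and no test against the controls was made. With library totals in place of TMM the count higher under AB-AP with controls overlapping only SD-AP was 1069 and with controls overlapping only AB-AP 61, and the count higher under SD-AP with controls overlapping only AB-AP was 428.

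**Figure D4:**
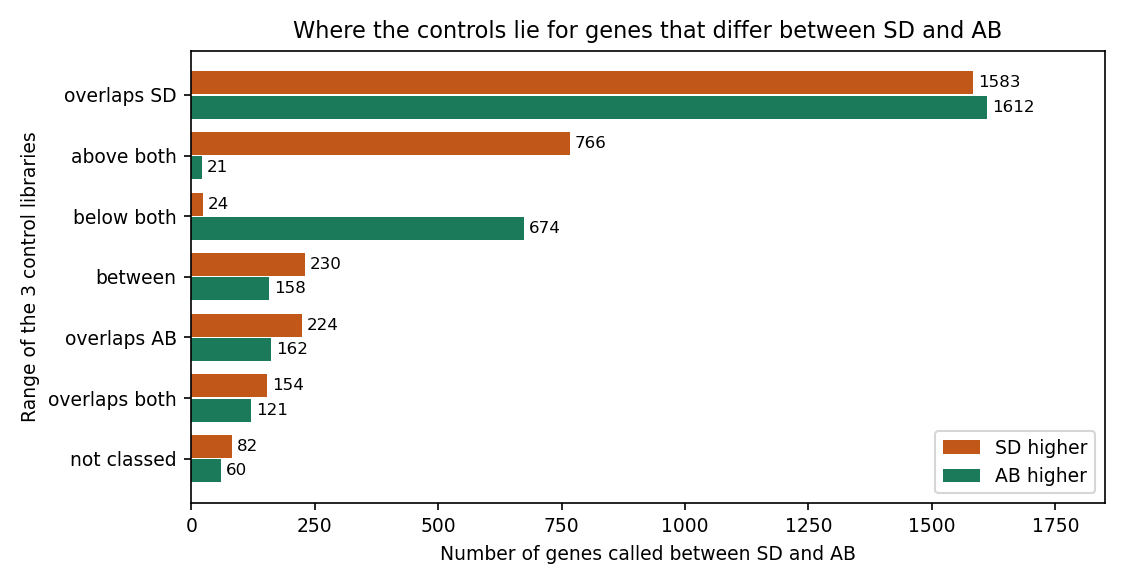
Number of genes called between SD-AP (SD) and AB-AP (AB), by where the range of the 3 control libraries lay against the ranges of both groups; orange bars are the 3063 genes higher under SD-AP, green bars the 2808 higher under AB-AP. The longest bars, 1583 and 1612, are genes whose controls overlap SD-AP alone, followed by 766 with controls above both and 674 with controls below both.

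Called genes also lay side by side on the scaffolds. A run was taken as at least 4 consecutive tested models called in the same direction with at least 2-fold difference. Untested models were passed over, up to 17 in an SD-AP run of 120.6 kb on scaffold 11. There were 26 runs higher under SD-AP, with 127 models, and 10 runs higher under AB-AP, with 46 models, and with library totals in place of TMM 42 and 5. Of all tested genes 15.9% (1723) and 12.4% (1348) were called at least 2-fold in these directions. Whether there were more runs than these shares alone would give was not tested. With the 10 CPM filter 4 runs were higher under AB-AP. The longest, on scaffold 7 (2237974 to 2276972, 39.0 kb), held 12 tested models higher under SD-AP and 1 untested model, on both strands, with a median log2 fold change of 2.72. TRAVEDRAFT_169894 in this run had 124, 146 and 135 CPM under SD-AP, 5.67, 4.58 and 7.67 CPM under AB-AP and 318 to 362 CPM in the controls (4.50, SE 0.29, adjusted p = 6.90e-08). TRAVEDRAFT_72824 (4.41), TRAVEDRAFT_169905 (3.51), TRAVEDRAFT_38225 (2.92), TRAVEDRAFT_126145 (2.52), TRAVEDRAFT_29790 (2.50), TRAVEDRAFT_126499 (2.11), TRAVEDRAFT_126095 (2.07), TRAVEDRAFT_48911 (1.36) and TRAVEDRAFT_65506 (1.09) were also members. The run also held TRAVEDRAFT_29797 (5.51 on 8 AB-AP counts in all, and 6.81 without AB-AP replicate 2) and TRAVEDRAFT_65507, which had no AB-AP counts. The TRAVEDRAFT_65506 call was lost without SD-AP replicate 2 or AB-AP replicate 1 or 2 (adjusted p = 0.0886 to 0.176).

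The longest run higher under AB-AP, on scaffold 9 (806405 to 820055, 13.7 kb), held 7 models with log2 fold changes from -2.998 to -1.21. TRAVEDRAFT_30442 had 2816, 3613 and 2637 CPM under AB-AP, 263, 627 and 245 CPM under SD-AP and 35.0 to 41.7 CPM in the controls (-2.998, SE 0.31, adjusted p = 3.67e-06). TRAVEDRAFT_30445 had 3924, 4205 and 3333 CPM under AB-AP, 923, 1092 and 685 CPM under SD-AP and 108 to 291 CPM in the controls (-2.09, SE 0.28, adjusted p = 4.31e-05). Both were thus higher under each phase than in any control library, and highest under AB-AP. TRAVEDRAFT_73514 (-2.91), TRAVEDRAFT_50178 (-2.78), TRAVEDRAFT_129010 (-1.40) and TRAVEDRAFT_152173 (-1.21) were also members. TRAVEDRAFT_50182 (-1.43, adjusted p = 0.0312) had 109, 535 and 121 CPM under SD-AP. It reached -2.58 without SD-AP replicate 2, and its call was lost without any 1 of 4 other libraries (adjusted p = 0.0650 to 0.105). The models on both sides of this run, chosen after their values were seen, were higher under SD-AP: TRAVEDRAFT_50176 had 26.0, 51.0 and 32.5 CPM under SD-AP and 0.882, 2.89 and 1.93 CPM under AB-AP (4.25, SE 0.37, adjusted p = 8.03e-07), and TRAVEDRAFT_50184 had 1.13, 11 and 2.21 CPM under SD-AP and 1 count in all under AB-AP (adjusted p = 0.00769). SD-AP replicate 2 holds most of its SD-AP level, and without that library it was called in the same direction (adjusted p = 0.0359). Direction thus changed at both edges of the run. Before the run this held for a single model, since the model before TRAVEDRAFT_50176, TRAVEDRAFT_50175, was again higher under AB-AP (-1.29, adjusted p = 0.0199). After the run, TRAVEDRAFT_50184 opened an SD-AP run of 4 tested models.

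**Figure D5:**
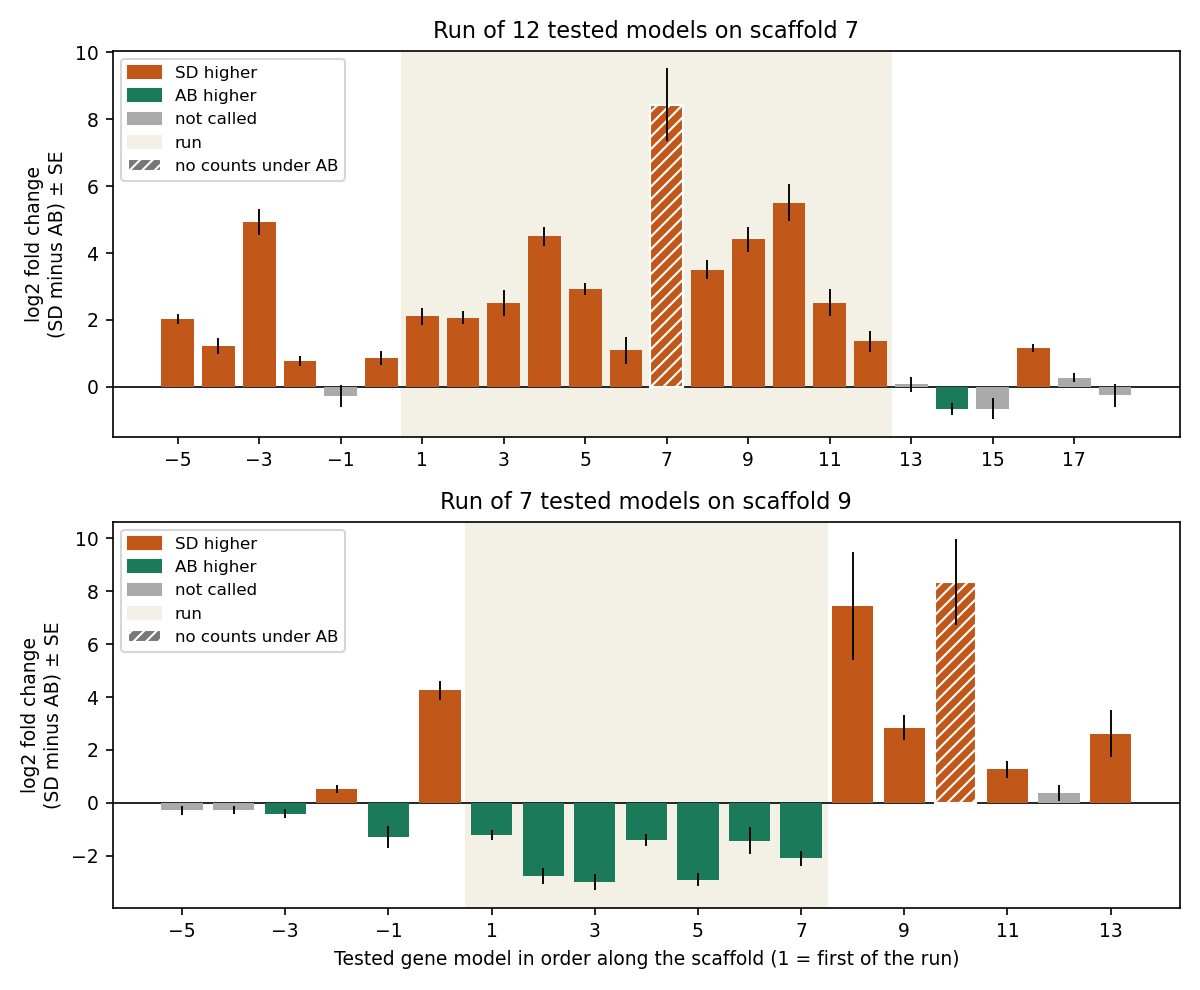
Log2 fold change (SD-AP minus AB-AP, called SD and AB in the plot) ± SE of tested gene models in order along scaffold 7 (top) and scaffold 9 (bottom), numbered from 1 at the first model of the run, with 6 models on either side; the shaded area is the run, and hatched bars have no AB-AP counts, so that their height depends on the fit. On scaffold 7 the 12 models of the run are all positive, and on scaffold 9 the 7 models of the run are all negative with positive models directly before and after. Model 8 of scaffold 9 rests on 1 AB-AP count. Models are spaced by order and not by distance: the scaffold 7 run ends at 2276972, and the next tested model starts at 2395285.

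A shorter run on scaffold 1 (4475963 to 4485265, 9.30 kb) held 4 models of which the least different had a log2 fold change of 4.71. It contained the abundant TRAVEDRAFT_160067 and the top gene TRAVEDRAFT_42584. The other 2 members, chosen after their values were seen, were TRAVEDRAFT_112258, with 179, 221 and 159 CPM under SD-AP and 6.51 to 8.12 CPM under AB-AP, and TRAVEDRAFT_109203, with 1772, 3668 and 1686 CPM under SD-AP and 43.6 to 63.9 CPM under AB-AP. Their controls, at 228 to 278 and 3812 to 4413 CPM, were above both phases. LDO1 lay within an SD-AP run of 6 models on scaffold 1 (604428 to 639016), and MnP3s opened an SD-AP run of 4 on scaffold 10 (2217215 to 2226640). Neighbours could also be opposite. TRAVEDRAFT_153507 on scaffold 10, also chosen after its values were seen, had 5367, 5711 and 5668 CPM under AB-AP and 29.9, 23.6 and 31.5 CPM under SD-AP (-7.62). The next model on the same strand, TRAVEDRAFT_31004 (1869080 to 1871473), had 1017, 993 and 972 CPM under SD-AP and 10.5, 9.16 and 11.7 CPM under AB-AP (6.57, SE 0.20, adjusted p = 1.84e-10).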

How the data were processed

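Per the labels' protocols, RNA from frozen pellets was purified with TRIzol and a plant column kit, and 200 ng of it went into polyA-selected mRNA libraries. The authors deposited raw counts of reads for each gene model, as whole numbers, and per the submitters' processing notes HISAT2 and featureCounts were used. Not given in the sources used here are their settings, the genome build, the strand mode and how reads with several matches were treated. Of 14296 models on 236 scaffolds 280 overlap another by exon, 158 on the opposite strand.

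Models were named by exact start and end from RefSeq's table for the assembly called Trametes versicolor v1.0: 14214 matched, 82 did not and 42 have a symbol. That table holds no descriptions or sequences, so lists by function other than symbols, protein signatures and promoter motifs were not used here. Coordinates are those of the deposited table.

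The fit used edgeR 4.0.16 in R 4.3.3 over the 12 libraries of the main batch: TMM scaling, the default filter by group, the quasi-likelihood F test (two-sided, 8 residual degrees of freedom, biological coefficient of variation 0.188) and Benjamini-Hochberg adjustment over 10838 genes, with a call at 0.05. Every adjusted p printed is from this edgeR test and adjustment, in the 12-library fit or, where the text names an alternative, in that refit, adjusted over the genes it tested. SE is the absolute log2 fold change divided by the square root of F, and is approximate at low counts. The script was tested on simulated data in which few genes changed, equally often in both directions. That test does not check the scaling where most genes differ, as here. No pair of libraries within the SD-AP, AB-AP or control group agreed within sampling noise, and other pairs were not checked. Sample titles say biological replicate, and the p-values rest on the spread among these samples.

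Named genes were those with a symbol, the 8 largest differences in each direction (called, at least 10 CPM in the higher group, no overlap), the 5 called at least 2-fold in each direction with the highest mean CPM over the 6 SD-AP and AB-AP libraries, the longest run in each direction and the gene with most counts against none; exceptions are marked. Members, lists and rules were chosen with earlier results of these data known. Alternatives were RLE size factors, library totals, DESeq2 1.42.0, no filter, a 10 CPM filter, SD-AP and AB-AP alone, an adjusted p of 0.01, a replicate block and leaving out each library. The 5 libraries of the preliminary batch were not used.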

Additional observations from a re-analysis of the deposited data

How the results depend on the processing

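The count of called genes, 5871, lay between 4339 (10 CPM filter, 7167 genes tested) and 6021 (library totals) under the alternatives, with 5874 for RLE size factors, 6001 for DESeq2, 5903 without a filter and 5900 for the SD-AP and AB-AP libraries alone. Without 1 library it was 5132 to 5578, with 2674 to 2862 higher under SD-AP, 2458 to 2716 higher under AB-AP and 2998 to 3124 at least 2-fold. The 10 CPM filter left 1947 at least 2-fold differences, since fewer genes were tested, and an adjusted p of 0.01 left 2810. Replicate numbers did not pair the SD-AP and AB-AP libraries: deviations of those with the same number correlated at -0.114, -0.184 and -0.0941, and no library correlated best with its own number. The controls were not part of this check. Genes that stood apart in replicate 2 of both SD-AP and the controls are given below. A fit with the replicate block called 5851 genes.

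Of 84 named genes with values under the alternatives, 67 kept direction and side of the threshold under all of those run on them. Without 1 library, the log2 fold change changed sign for 8 genes, with ranges of -0.95 to 2.72 for TvLac3, -0.17 to 3.37 for TvLac1, -0.28 to 1.10 for TvFet3A, -1.72 to 0.012 for MnP7s, -0.15 to 0.21 for LiP12, -0.077 to 0.35 for LiP3, -0.28 to 0.54 for LiP5 and -0.51 to 0.035 for LiP10. The sign changed when SD-AP replicate 2 was left out for TvLac3, TvLac1, TvFet3A and LiP3, SD-AP replicate 1 for LiP12, LiP5 and LiP10, SD-AP replicate 3 for MnP7s and LiP5, AB-AP replicate 1 for LiP5, and AB-AP replicate 3 for LiP3 and LiP12. The cause was not tested. The TvLac1 call was also lost with the 10 CPM filter, with both groups alone and without any 1 AB-AP library (adjusted p = 0.0515 to 0.127), TRAVEDRAFT_50182 was lost (adjusted p = 0.0597) and TvLac6 gained (adjusted p = 0.0403) with library totals. Depth limits the genes near 3 counts, among them VP1, DyP2 and TRAVEDRAFT_20736 in their lower group.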

Other observations

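The 19 genes that were over 4 times higher in SD-AP replicate 2 than in both other SD-AP libraries and the 10 such genes of control replicate 2 had 6 in common, 31.6% of the first set and 6 of 10 of the second. These were TvLac1, TvLac3, TRAVEDRAFT_70408, TRAVEDRAFT_129445, TRAVEDRAFT_60827 and TRAVEDRAFT_50184. TRAVEDRAFT_70408 (scaffold 3, 3382375 to 3383459) had 2.93, 255 and 4.52 CPM under SD-AP, 17.7, 155 and 8.19 CPM in the controls and 10.5, 2.23 and 7.55 CPM under AB-AP. TRAVEDRAFT_60827 had 1.59, 10.6 and 2.52 CPM under SD-AP, 10.8, 66.1 and 7.54 CPM in the controls and 1.33 to 1.75 CPM under AB-AP. Without SD-AP replicate 2 the log2 fold change between SD-AP and AB-AP went from 3.69 to -0.86 for TRAVEDRAFT_70408, from 1.62 to 0.36 for TRAVEDRAFT_60827 and from 1.86 to -0.03 for TRAVEDRAFT_129445, and none of these was called with or without it. Both sets were chosen on these levels, so their overlap is a description.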
